A study of Mus musculus with 4 samples.

Results

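Sorted fractions of a mouse leukaemia, both without surface c-Kit and apart in their level of a nucleostemin reporter, were compared gene by gene: c-Kit- NS-GFP middle cells against c-Kit- NS-GFP low cells. The members are the 2 arrays that carry those labels, 1 per fraction, of 4 arrays in the series. Of 18193 genes represented on the arrays, 11062 were above a low-signal floor on at least 1 of both arrays and were compared. The other 7131 were at or below the floor on both and have no ratio here. With 1 array per fraction there is no replicate spread, so every difference is given as a size without a test.

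All 4 fractions came from bone marrow on the C57BL/6 background, and all were made from the same kind of donor cell. Marrow cells of a transgenic mouse, in which green fluorescent protein is driven by a region of the nucleostemin promoter (NS-GFP), were given HoxA9 and Meis1, which produced an acute myeloid leukaemia. The leukaemia cells were sorted by c-Kit and by NS-GFP into c-Kit- middle, c-Kit- low, c-Kit+ middle and c-Kit+ high. TRIzol was used for the RNA, from which cRNA carrying biotin was prepared for Affymetrix arrays. The sources used here do not give which region of the promoter drives the reporter, whether mice were pooled, or which other cells of the host marrow the gates let through. The comparison asks how transcription differs with reporter level where c-Kit is absent.

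Gnl3 encodes nucleostemin, a GTPase of the nucleolus that is abundant in stem and proliferating cells and takes part in ribosome production and genome protection. Kit encodes c-Kit, a receptor tyrosine kinase of immature blood cells whose ligand is stem cell factor. HoxA9 and its partner Meis1 are homeobox factors of early blood progenitors that are switched off as myeloid cells mature. As granulocytes and monocytes mature they leave the cell cycle, stop making primary granule proteins, and gain surface receptors, phagocyte oxidase and secondary granule proteins.

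The genes behind the sort were read first. Kit had a signal of 26.4 on the c-Kit- middle array and 6.57 on the c-Kit- low array, which is below the floor of 15.3. It had 690 and 479 on the c-Kit+ middle and c-Kit+ high arrays, so both c-Kit- arrays were far below both c-Kit+ arrays. Within the c-Kit- cells, Kit was at least 1.73-fold higher on the middle array. Its second probe set did not exceed the floor on either c-Kit- array. Gnl3, whose promoter region the reporter uses, had 584 on the c-Kit- middle array and 183 on the c-Kit- low array, a ratio of 3.19-fold in the order of the reporter gates. The c-Kit+ middle and c-Kit+ high arrays had 1109 and 1299 for Gnl3, so its signal rose from the low to the middle to the high NS-GFP gate. The arrays of the middle gate were not equal, with 584 in c-Kit- and 1109 in c-Kit+ cells. Hoxa9 went the other way and was 2.39-fold lower, with 786 on the c-Kit- middle array and 1882 on the c-Kit- low array. The c-Kit+ arrays held 673 and 510. The second probe set of Hoxa9 did not exceed the floor on either c-Kit- array, so this ratio rests on 1 probe set. The sources used here do not say whether either Hoxa9 probe set reads the introduced gene. Meis1 was below the floor on all 4 arrays, with 11.4 on the c-Kit- middle array and 5.85 on the c-Kit- low array, and has no ratio. Myeloid identity was present on both arrays: Lyz2 (lysozyme) had 6630 on the c-Kit- middle array and 8109 on the c-Kit- low array, and Csf1r, the receptor for macrophage colony-stimulating factor, had 5210 on the middle array and 6871 on the low array.

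Most genes had similar signals on both arrays. At least 2-fold higher on the c-Kit- middle array were 736 genes (6.65 percent of those compared), and at least 2-fold lower were 604 (5.46 percent). Within 2-fold were 9722 genes. Most genes past 2-fold, 570 of the higher and 488 of the lower, are in none of the gene lists described here. The median log2 ratio of middle over low was 0.03, and 5 to 95 percent of the genes spanned -1.04 to 1.15. At least 4-fold apart were 105 genes that were higher and 48 that were lower on the middle array. Of the genes past 2-fold, 70 of the higher and 80 of the lower were at the floor on the other array, so their folds are lower bounds. The balance between both directions depends on scaling. With the signals as the authors scaled them, the median of all genes was -0.25, and 24.2 percent of the genes past 2-fold were higher, against 54.9 percent after quantile normalization. Directions below are therefore relative to the bulk of genes.

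**Figure D1:**
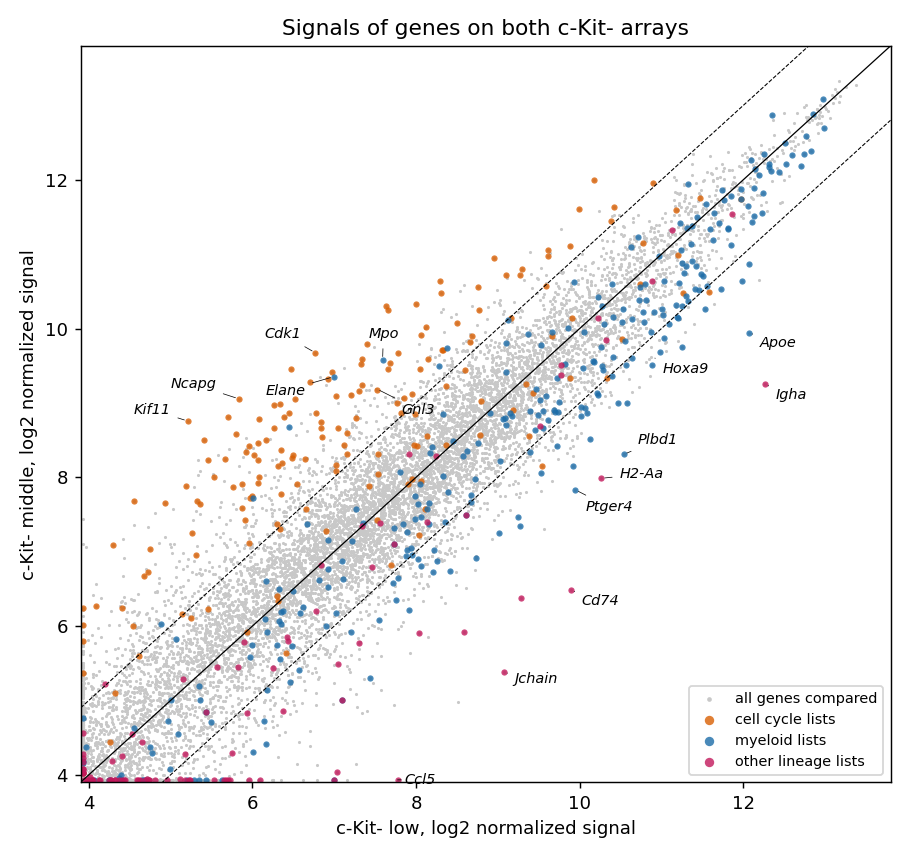
Normalized signal of each gene compared, as log2, on the c-Kit- middle array (vertical) and the c-Kit- low array (horizontal), with the solid line at equal signal and dashed lines 2-fold either side; signals at or below the floor are drawn at the floor. Most genes of the cell cycle lists lie above the upper dashed line, and Igha, Cd74, Jchain, Apoe and Plbd1 are among those below the lower one, while most of the 11062 genes lie between them.

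Genes read by more than 1 probe set give a measure of probe error. For 4504 genes the brightest and second-brightest probe sets were above the floor on both arrays, and their log2 ratios had an SD of 0.37 each, from the differences between them. Of 439 such genes past 2-fold by their brightest probe set, the second had the same sign in 404 (92.0 percent) and was itself past 2-fold the same way in 226 (51.5 percent). Agreement in sign was 94.4 percent for the 269 higher genes and 88.2 percent for the 170 lower genes. These values cover probe error and say nothing of the spread between sorts or mice.

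**Figure D2:**
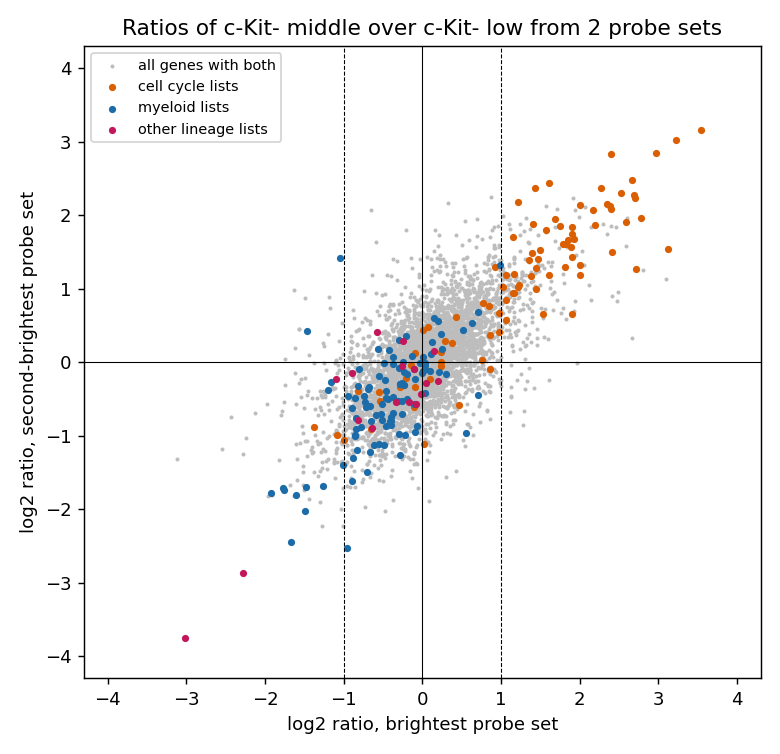
Log2 ratio of c-Kit- middle over c-Kit- low by the brightest probe set (horizontal) and the second-brightest probe set (vertical) of each of 4504 genes with both above the floor on both arrays; dashed lines mark 2-fold by the brightest. Of the 439 genes outside the dashed lines, 404 have the same sign by both probe sets, and the cell cycle genes run along the diagonal at the upper right.

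The block of genes furthest above the bulk on the c-Kit- middle array was that of mitosis. Of 68 genes of G2 and M phase on the array, 67 were compared, 64 were at least 2-fold higher on the middle array and 0 were at least 2-fold lower. Their median log2 ratio was 2.25, against 0.03 over all genes. Their summed signal was 52655 on the c-Kit- middle array and 17321 on the c-Kit- low array. It was 54557 on the c-Kit+ middle array and 75720 on the c-Kit+ high array, so the sum on the c-Kit- middle array was close to that at the same reporter gate in c-Kit+ cells and the c-Kit- low array stood alone below the other 3. Kif15, another spindle kinesin, was below the floor on both arrays. The members not 2-fold apart were Espl1 (0.96), the protease that separates sister chromatids, Bub3 (0.43), a checkpoint protein, and Pttg1 (-0.14), the securin that restrains that protease. Fewer dividing cells and less RNA of these genes per cell cannot be told apart in sorted bulk samples, here or in any list that follows.

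Kif11, the kinesin that pushes spindle poles apart, had 432 on the c-Kit- middle array and 37.0 on the c-Kit- low array. That ratio of 11.7-fold was the highest of any named gene above the floor on both arrays, and its second probe set gave a log2 ratio of 3.15 beside 3.55. Ncapg, a subunit of condensin, had 532 on the middle array and 57.1 on the low array, 9.32-fold apart. Cdk1, the kinase that drives entry into mitosis, had 817 on the middle array and 109 on the low array, 7.50-fold apart. In each of these genes the c-Kit+ arrays were far above the c-Kit- low array, at 418 and 681 for Kif11, 504 and 678 for Ncapg and 716 and 1478 for Cdk1. Cdc25c, the phosphatase that activates Cdk1, was 8.75-fold higher, Spc25 and Nuf2, both of the Ndc80 complex of the kinetochore, 8.67-fold and 8.53-fold, and Prc1, which bundles microtubules of the central spindle, 7.85-fold. By second probe sets Prc1 was 7.15-fold higher and Cdc25c 2.90-fold. Spc25 was then at least 2.66-fold higher, at the floor on the low array, and Nuf2 had only 1 probe set. Kif18a, a kinesin that trims spindle microtubules, was 6.97-fold higher and Ckap2 6.90-fold. The second probe set of Kif18a did not exceed the floor on either c-Kit- array. Plk1, a mitotic kinase, was at the near end of the list at 1.06 on the log2 scale.

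The promoters of the 3 genes described first, and of Gnl3 itself, are shown because mitotic genes were furthest apart and the reporter rests on a region of the last. Genes of this phase are known to share a short element, TTTGAA, the cell cycle genes homology region, and CCAAT boxes upstream of it. The 250 bases before each transcription start are given 5′ to 3′ on the gene's own strand, from RefSeq on GRCm38.p6, with every TTTGAA or CCAAT on either strand in capitals (TTCAAA and ATTGG are the opposite-strand forms). They lie at chr19:37376132-37376381 on the plus strand for Kif11, chr5:45669675-45669924 on the plus strand for Ncapg, chr10:69352913-69353162 on the minus strand for Cdk1 and chr14:31019132-31019381 on the minus strand for Gnl3.
Kif11: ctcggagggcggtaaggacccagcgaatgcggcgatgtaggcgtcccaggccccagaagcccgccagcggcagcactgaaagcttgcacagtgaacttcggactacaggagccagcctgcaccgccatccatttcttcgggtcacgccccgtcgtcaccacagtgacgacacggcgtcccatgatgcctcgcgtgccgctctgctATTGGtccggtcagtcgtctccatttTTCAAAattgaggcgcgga
Ncapg: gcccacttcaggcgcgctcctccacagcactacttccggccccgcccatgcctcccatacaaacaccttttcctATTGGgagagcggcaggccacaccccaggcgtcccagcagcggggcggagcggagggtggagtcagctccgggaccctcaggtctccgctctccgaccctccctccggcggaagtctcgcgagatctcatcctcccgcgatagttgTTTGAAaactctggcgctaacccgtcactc
Cdk1: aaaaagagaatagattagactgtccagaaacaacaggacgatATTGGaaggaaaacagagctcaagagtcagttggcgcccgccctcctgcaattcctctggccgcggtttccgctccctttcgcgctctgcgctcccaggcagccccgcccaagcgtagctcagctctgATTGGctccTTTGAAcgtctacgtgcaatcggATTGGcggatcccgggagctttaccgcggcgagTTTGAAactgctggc
Gnl3: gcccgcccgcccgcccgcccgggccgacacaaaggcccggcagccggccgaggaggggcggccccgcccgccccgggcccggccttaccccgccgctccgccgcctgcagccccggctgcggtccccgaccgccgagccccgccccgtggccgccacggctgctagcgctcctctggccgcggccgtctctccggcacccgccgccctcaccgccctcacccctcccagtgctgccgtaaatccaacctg

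Kif11 carries 1 TTTGAA, on the opposite strand, whose first base is 19 bases before the start, with a CCAAT box at 45. Ncapg carries 1 on its own strand at 30 and a CCAAT box at 176, counted from a start inside the annotated gene. The annotated Ncapg gene begins at chr5:45669891, so the end of its window, with the TTTGAA, lies within the gene. Cdk1 carries 2 on its own strand, at 71 and 15, with CCAAT boxes at 208, 80 and 48. Neither set of letters is in the Gnl3 window shown. In windows from 250 bases before to 50 bases after the start, TTTGAA on either strand was found in 38 of 54 promoters of 50 of the G2 and M phase genes at least 2-fold higher (70.4 percent). It was found in 12.2 percent of the 11528 promoters of genes compared and 17.9 percent of all 32851 promoters. CCAAT was found in 75.9 percent of the G2 and M phase promoters and 37.8 percent of those of genes compared. In 36 promoters of 31 S phase genes at least 2-fold higher, TTTGAA was in 11.1 percent and CCAAT in 55.6 percent. There the E2F forms TTTCCCGC and TTTGGCGC were in 16.7 and 13.9 percent, against 2.02 and 1.02 percent of the promoters of genes compared. Each set of letters was counted on its own, and a match in letters is not evidence of binding.

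Genes of DNA replication followed. All 50 S phase and replication genes were compared, 38 were at least 2-fold higher on the c-Kit- middle array and 0 were at least 2-fold lower, with a median log2 ratio of 1.44. Rrm2, the ribonucleotide reductase subunit made in S phase, had 1266 on the middle array and 199 on the low array, 6.36-fold apart. Rfc4, a clamp loader subunit, was 5.29-fold higher, Tipin, which protects the replication fork, 5.02-fold, Prim1, the primase, 4.57-fold, and Cdc6, which loads the replicative helicase, 4.49-fold. The helicase itself differed less: Mcm2 to Mcm7 had log2 ratios of 1.39, 1.16, 1.47, 1.23, 1.61 and 1.06. At the near end Rfc2 (0.07) and Pold3 (0.01) were at equal signal. Of 24 DNA repair and Fanconi genes compared, 13 were at least 2-fold higher and 0 lower, with a median of 1.25. Chek1, the replication checkpoint kinase, was 4.10-fold higher, and Exo1, a nuclease of end resection, was at least 4.95-fold higher because it was at the floor on the low array.

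Genes that restrain the cycle were past 2-fold about as often as all genes. Of 28 cell cycle inhibitor and quiescence genes compared, 2 were at least 2-fold higher and 2 at least 2-fold lower on the c-Kit- middle array. That is 7.14 percent each way, beside 6.65 percent higher and 5.46 percent lower over all genes. Their median was -0.22. The higher ones were Rbl1 (3.47-fold), the pocket protein p107, and Cdkn2c (2.07-fold), which inhibits Cdk4 and Cdk6. The lower ones were Btg2, an antiproliferative gene, with 286 on the middle array and 742 on the low array, and Txnip (2.12-fold), which restrains glucose uptake. Cdkn1a had 346 on the middle array and 251 on the low array and Cdkn1b 252 and 247 in the same order, so neither of these Cdk inhibitors was lower on the middle array.

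Growth genes formed a shallower block. Of 31 Myc-linked growth genes, 11 were at least 2-fold higher and 0 lower, with a median of 0.88. Myc itself had 409 on the c-Kit- middle array and 154 on the c-Kit- low array, and 960 and 866 on the c-Kit+ arrays, so it stood between low and c-Kit+ on the middle array. Shmt1, a folate enzyme, had 134 on the middle array and 15.6 on the low array, only just above the floor, and its ratio of 8.55-fold was 2.20-fold by the second probe set. Ppat and Cad, which start purine and pyrimidine synthesis, were 4.15-fold and 3.14-fold higher, and Odc1, which starts polyamine synthesis, had 799 on the middle array and 312 on the low array. Eif4ebp1, which blocks cap-dependent translation, was the member furthest the other way at -0.31.

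Of 13 genes of the nucleostemin family and the nucleolus, 5 were at least 2-fold higher and 0 lower on the middle array, with a median of 0.84. Nop58, a box C/D snoRNP protein, had 270 on the middle array and 62.2 on the low array, 4.33-fold apart. Its partner Nop56 was 2.92-fold higher, Ncl (nucleolin) 2.15-fold and Dkc1 (dyskerin) 2.04-fold. Gnl3 exceeded its own relatives, since Gnl2 had a log2 ratio of 0.53 and Gnl3l 0.35, beside 1.67. Ribosome biogenesis genes were shifted less: of 55, 5 were at least 2-fold higher and 0 lower, 9.09 percent against 6.65 percent of all genes, with a median of 0.46. Ftsj3 (2.77-fold) and Gar1 (2.61-fold) led them. Of 16 genes of RNA polymerase I and III, only Taf1d (2.04-fold) was past 2-fold, and of 28 cytosolic ribosomal protein genes only Rpl14 (2.25-fold) was. The Rpl14 probe set was weak, with 194 on the middle array and 86.3 on the low array, far below the list's median log2 level of 12.8. The second probe set of Rps15 was 3.67-fold lower on the middle array. The median ratio of the ribosomal protein list was -0.0030. The E-box CACGTG was in 13 of 54 promoters of ribosome biogenesis genes (24.1 percent) and in 10 of 34 of Myc-linked growth genes (29.4 percent). It was in 0 of 9 of the nucleostemin family and nucleolar genes and in 9.96 percent of the promoters of genes compared.

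**Figure D3:**
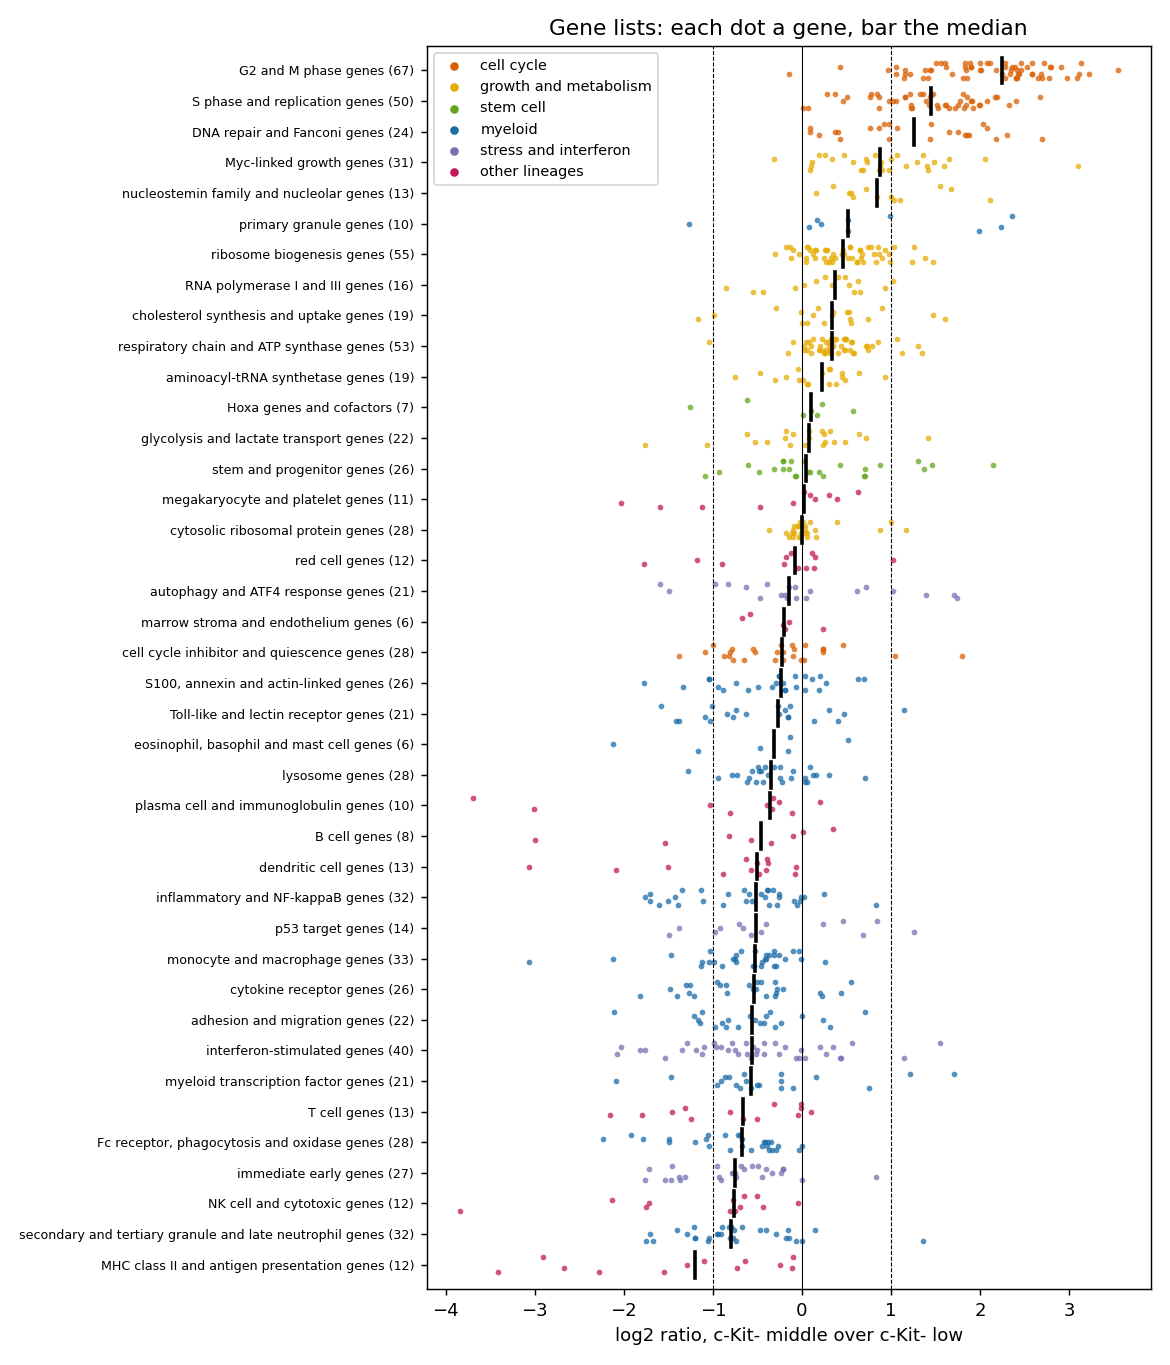
Log2 ratio of c-Kit- middle over c-Kit- low for every gene compared in 40 gene lists (1 dot a gene, black bar the list's median, number of genes compared in brackets), ordered by median, with dashed lines at 2-fold; genes at the floor on 1 array are drawn at their bound. The G2 and M phase list sits highest at 2.25 and the class II list lowest at -1.20, with the myeloid lists other than primary granule genes below 0.

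Among myeloid genes, several of the promyelocyte stage were higher on the c-Kit- middle array, and many of mature cells were lower. Of 10 primary granule genes, 3 were at least 2-fold higher and 1 lower, with a median of 0.52. Elane, neutrophil elastase, had 654 on the middle array and 128 on the low array, and 3160 and 3187 on the c-Kit+ arrays. Ms4a3, a marker of granulocyte and monocyte progenitors, had 410 on the middle array and 87.1 on the low array, and Mpo, myeloperoxidase, 763 and 193 in the same order, against 7087 and 7309 on the c-Kit+ arrays. These 3 were therefore higher on the middle array but remained far below both c-Kit+ arrays. Ctsg (1.43-fold) and Prtn3 (0.17 on the log2 scale), also primary granule proteases, were within 2-fold. Nkg7, a cytotoxic granule gene in the list, was at least 2.40-fold lower, at the floor on the middle array. Of 21 myeloid transcription factors 2 were higher and 2 lower, 9.52 percent each way, beside 6.65 and 5.46 percent of all genes. Their median was -0.57, and 17 were below 0 on the log2 scale. Gfi1, a repressor needed for granulocytes, had 212 on the middle array and 64.6 on the low array (3.28-fold), and Tfec was 2.33-fold higher; these were the higher ones.

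Of 32 genes of secondary and tertiary granules and of late neutrophils, 10 were at least 2-fold lower on the middle array and 1 was higher, with a median of -0.80 and 31.2 percent lower, against 5.46 percent of all genes. Ngp, a neutrophil granule protein, had 1476 on the middle array and 3385 on the low array. Mmp9, gelatinase B, had 107 on the middle array and 340 on the low array, Ltf, lactoferrin, 130 and 297 in the same order, and Ifitm6 825 and 2017. Chil1 was 3.36-fold lower, with 21.4 on the middle array, close to the floor, and 71.7 on the low array. Trem3, an activating receptor, was the exception at 2.57-fold higher. Lyz2 (-0.29), Hp (-0.14) and Chil3 (-0.18) were within 2-fold, and 30 of the 32 members were below 0 on the log2 scale.

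Monocyte and macrophage genes had a median of -0.52, with 7 of 33 at least 2-fold lower and 0 higher, or 6 of 32 without Itgax, which a lineage list shares. Apoe, the lipid carrier of macrophages, had 985 on the c-Kit- middle array and 4292 on the c-Kit- low array, 4.36-fold apart, and 219 and 232 on the c-Kit+ arrays. Adgre1, which encodes F4/80, was 2.17-fold lower, Cx3cr1, the fractalkine receptor, 2.19-fold and Nr4a1, a nuclear receptor of patrolling monocytes, 2.77-fold. Csf1r (-0.40), Ccr2 (-0.52) and F13a1 (-0.01) were within 2-fold.

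Of 28 Fc receptor, phagocytosis and oxidase genes, 9 were at least 2-fold lower and 0 higher, with a median of -0.67, and 27 had a ratio below 0 on the log2 scale. Plbd1, a granule phospholipase-like protein, had 317 on the middle array and 1486 on the low array, 4.69-fold apart, and was below the floor on both c-Kit+ arrays. Clec4n (Dectin-2) was 3.80-fold lower and Sirpb1a 3.45-fold, and Pirb, an inhibitory receptor, had 864 on the middle array and 2440 on the low array. On both c-Kit+ arrays Clec4n and Sirpb1a were below the floor, and Pirb had 47.0 and 25.3. The oxidase subunits were shifted less, at -0.67 for Cybb, -0.41 for Cyba and -0.39 for Ncf4. Among surface and signalling receptors most genes were within 2-fold. Of 26 cytokine receptor genes 7 were lower and 0 higher (median -0.53), led by Il10ra (3.53-fold) and Il13ra1 (2.78-fold), and Lifr, the receptor for leukaemia inhibitory factor, had 1230 on the middle array and 2962 on the low array. Of 22 adhesion and migration genes 5 were lower and 0 higher (median -0.56), or 4 of 20 without the genes that lineage lists share. Ptger4, a prostaglandin E2 receptor, had 228 on the middle array and 986 on the low array, and Itgb2, the common chain of leukocyte integrins, 1865 and 4318 in the same order. Of 21 Toll-like and lectin receptor genes 6 were lower, among them Cd14 (2.61-fold) and Tlr2 (2.12-fold), and 1, Clec5a, was 2.22-fold higher.

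Actin-linked and lysosomal genes were shifted little. Of 26 S100, annexin and actin-linked genes 4 were at least 2-fold lower (median -0.23): Gsn, gelsolin (3.41-fold), Lsp1 (2.53-fold), S100a9 (2.06-fold) and Capg (2.07-fold). The second probe set of Capg gave 1.42 on the log2 scale, the other direction, so its call rests on 1 probe set. Of 28 lysosome genes only Lgmn, legumain, was at least 2-fold lower (2.43-fold), with a median of -0.34. Among the myeloid transcription factors, Irf5 and Irf4, the second also in a lineage list, were the 2 at least 2-fold lower. Irf5 was 2.76-fold lower, and its second probe set gave 0.42 on the log2 scale, the other way. Spi1, which encodes PU.1, had 397 on the middle array and 701 on the low array, and Irf8 3810 and 4470 in the same order. Of eosinophil, basophil and mast cell genes, 6 of 16 were above the floor, and Cpa3, a mast cell protease, had 39.6 on the middle array and 173 on the low array, with 228 on the c-Kit+ middle array and 68.8 on the c-Kit+ high array.

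Some inducible genes were lower on the c-Kit- middle array, in larger shares than the 5.46 percent of all genes, and most were within 2-fold. Of 32 inflammatory and NF-kappaB genes 10 were at least 2-fold lower and 0 higher (median -0.51). Socs3, the feedback inhibitor of cytokine signalling, had 153 on the middle array and 517 on the low array, Ccl6, a chemokine, 365 and 1114, and Nfkb2 was at least 3.25-fold lower. Of 27 immediate early genes 8 were lower and 0 higher (median -0.75), including Atf3 (3.39-fold), Ier5 (3.29-fold) and Zfp36l1 (2.91-fold). By its second probe set Zfp36l1 was only 1.17-fold lower. Fos was within 2-fold, with 6037 on the middle array and 7016 on the low array. Of 40 interferon-stimulated genes 10 were lower and 2 higher (median -0.56). Rsad2 (viperin) was 4.20-fold lower and Irf7, the interferon master regulator, 4.09-fold, and Ifitm3 had 1603 on the middle array and 4669 on the low array. The higher ones were Gbp3 (2.93-fold) and Gbp7 (2.21-fold), both guanylate-binding proteins. Lymphoid, class II and other lineage genes differed in the same comparison as the myeloid and inducible genes. Of 96 compared, 29 (30.2 percent) were at least 2-fold lower on the middle array and 1 was higher, a count in part set by the floor. Their part in the myeloid, inducible and cell cycle results was not tested.

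The named genes furthest apart outside the lists are in part little studied in myeloid cells. Genes of the lineage lists were left out here, but those lists do not hold every lymphoid gene. Such genes can remain among those named, as Gimap4 does below. The lowest ratio above the floor on both arrays was then that of Tspan13, a tetraspanin. Tspan13 had 17.7 on the c-Kit- middle array and 154 on the c-Kit- low array, 8.72-fold apart. Its second probe set gave -1.31, a smaller size in the same direction. Ckb, brain-type creatine kinase, had 158 on the middle array and 757 on the low array (4.80-fold), and 12.6 on the c-Kit+ high array, below the floor. Zbtb16, the factor PLZF, was 5.41-fold lower, Marcks, an actin-linked substrate of protein kinase C, 4.96-fold and Kbtbd11 5.68-fold. By its second probe set Zbtb16 was 1.68-fold lower. Nfatc2 was 6.87-fold lower by its brightest probe set, but the second gave 0.52 on the log2 scale. The remaining lowest were Card10, Clec2i, Lipo3, Ndnf, Tppp3 and Agpat4, between 4.87-fold and 6.36-fold. On the other side Ncam1, the adhesion molecule CD56, had 174 on the middle array and was at the floor on the low array, at least 11.4-fold higher. It had 212 and 332 on the c-Kit+ arrays. By its second probe set Ncam1 was at least 2.35-fold higher, again at the floor on the low array. Tmem178 (at least 8.99-fold), Fam221a (at least 4.87-fold) and Rhoj (at least 4.62-fold) were likewise at the floor on the low array. At the floor on the middle array were Tent5c, a poly(A) polymerase, with 142 on the low array (at least 9.31-fold lower), Gimap4, a GTPase of lymphocytes (at least 7.26-fold), Lsr (at least 6.45-fold) and Jakmip1 (at least 5.35-fold).

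**Figure D4:**
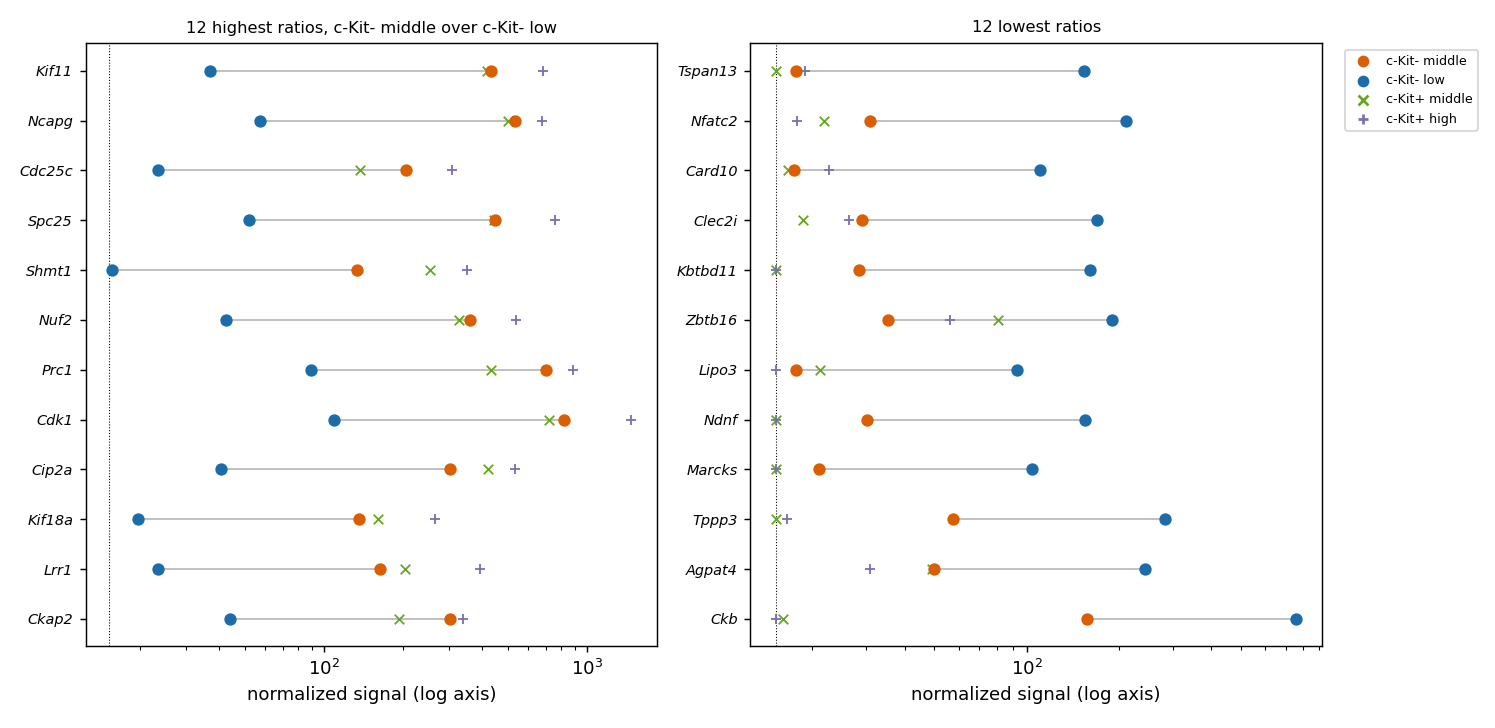
Normalized signal (log axis) of the 12 highest and 12 lowest genes by ratio of c-Kit- middle over c-Kit- low among named genes above the floor on both arrays, genes of the lineage lists left out, with both c-Kit+ arrays as crosses (drawn at the dotted floor where below it). For the 12 highest genes both c-Kit+ arrays lie above the c-Kit- low array, and for the 12 lowest both lie below it.

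Genes of other lineages are described apart from the myeloid lists, though a few, such as Itgax, Irf4 and Itgb3, are in lists of both kinds. Over the 9 lists of such genes 96 genes were compared, each counted once. Of these, 29 (30.2 percent) were at least 2-fold lower on the c-Kit- middle array, against 5.46 percent of all genes, and 1 was higher. A gene above the floor on the low array only can only come out lower. Only 2 of 12 NK cell, 4 of 13 T cell, 8 of 13 dendritic cell and 6 of 10 plasma cell genes compared were above it on both arrays. The count over the lineage lists is therefore in part set by the floor. Class II and antigen presentation genes had the lowest median of any list, -1.20, with 7 of 12 lower and 0 higher and a summed signal of 2455 on the middle array and 5750 on the low array. Cd74, the invariant chain, had 89.3 on the middle array and 950 on the low array, 10.6-fold apart. H2-Aa had 254 on the middle array and 1230 on the low array, and its second probe set gave -2.87 beside -2.28. H2-Eb1 was 7.51-fold and H2-Ab1 6.38-fold lower. On both c-Kit+ arrays Cd74 and H2-Eb1 were below the floor, while H2-Ab1 had 104 and 99.0, more than on the c-Kit- middle array. H2-DMa, which loads peptides, was within 2-fold (1588 on the middle array, 1884 on the low array), and Ciita, the class II activator, was at 16.4 on the low array, next to the floor.

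Of the immunoglobulin genes, those of IgA secretion were far apart. Igha, the IgA heavy chain, had 609 on the c-Kit- middle array and 4915 on the c-Kit- low array, 8.07-fold apart by 1 probe set and -3.75 on the log2 scale by the second. Jchain, the joining chain of secreted IgA and IgM, had 41.6 on the middle array and 538 on the low array, 12.9-fold apart. On the c-Kit+ middle array both were below the floor, and on the c-Kit+ high array they had 65.4 for Igha and 22.1 for Jchain. Ighm did not follow them, with 2572 on the middle array and 2236 on the low array. Sdc1, a plasma cell marker, was at least 2.04-fold lower, with 31.1 on the low array. Of the plasma cell and immunoglobulin list 3 of 10 were lower, and its summed signal was 7001 on the middle array and 12448 on the low array. Of 19 B cell genes on the array 11 were below the floor on both arrays, among them Ms4a1 (CD20) and Cd79a, and Cd22 (7.96-fold) and Bank1 (2.90-fold) were lower. Cd22 had 16.5 on the middle array, next to the floor, and its second probe set did not exceed the floor on either array. The summed signal of the B cell list was 786 on the middle array and 1394 on the low array.

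Many NK and T cell genes were above the floor on the low array only or on neither array. Of 17 NK cell and cytotoxic genes, 12 were above the floor on the low array and 2 on the middle array, with summed signals of 143 on the middle array and 794 on the low array. Ccl5, a chemokine of cytotoxic cells, had 5.56 on the middle array and 219 on the low array, at least 14.3-fold apart. Klrd1 (CD94) had 59.8 on the middle array and 263 on the low array. Cd7 and Ctsw were at least 3.36-fold and at least 3.30-fold lower. Of 20 T cell genes on the array 13 were compared and 5 were lower, namely Cd2, Thy1, Il7r, Lat and Bcl11b. All but Il7r were at the floor on the middle array, so their ratios are bounds. Their list summed to 312 on the middle array and 603 on the low array. Cd3d, Cd3e, Cd3g, Cd4 and Cd8b1, which define T cells, were below the floor on both arrays, as was Ncr1, which defines NK cells. Of dendritic cell genes 3 of 13 were lower: Itgax (CD11c), with 14.2 on the middle array and 128 on the low array, at least 8.36-fold, Irf4, with 32.0 and 137, and Cd209a, with 29.1 and 82.8 in the same order. The dendritic cell list summed to 3113 on the middle array and 4191 on the low array.

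Most red cell and platelet genes compared were within 2-fold. The shares lower, 16.7 percent of red cell and 27.3 percent of platelet genes, exceeded the 5.46 percent of all genes. They rest on 2 and 3 genes, some of them at the floor on the middle array. Of 20 red cell genes 12 were compared, 2 were lower and 1 higher, with a summed signal of 684 on the middle array and 765 on the low array. Alas2, the first enzyme of haem synthesis in red cells, had 1.55 on the middle array and 52.0 on the low array (at least 3.41-fold), and Slc4a1, the band 3 anion exchanger, 15.3 and 34.7 in the same order. Ank1, an ankyrin, went the other way with 37.3 on the middle array and 18.3 on the low array. Hba-a1, a globin gene, was below the floor on both arrays. Of 11 megakaryocyte and platelet genes compared 3 were lower: F2r (at least 4.09-fold), Vwf (at least 3.02-fold) and Itgb3 (2.18-fold). Ppbp, Gp9 and Gp6, which define platelets, were below the floor on both arrays. None of 6 stroma and endothelium genes was past 2-fold.

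**Figure D5:**
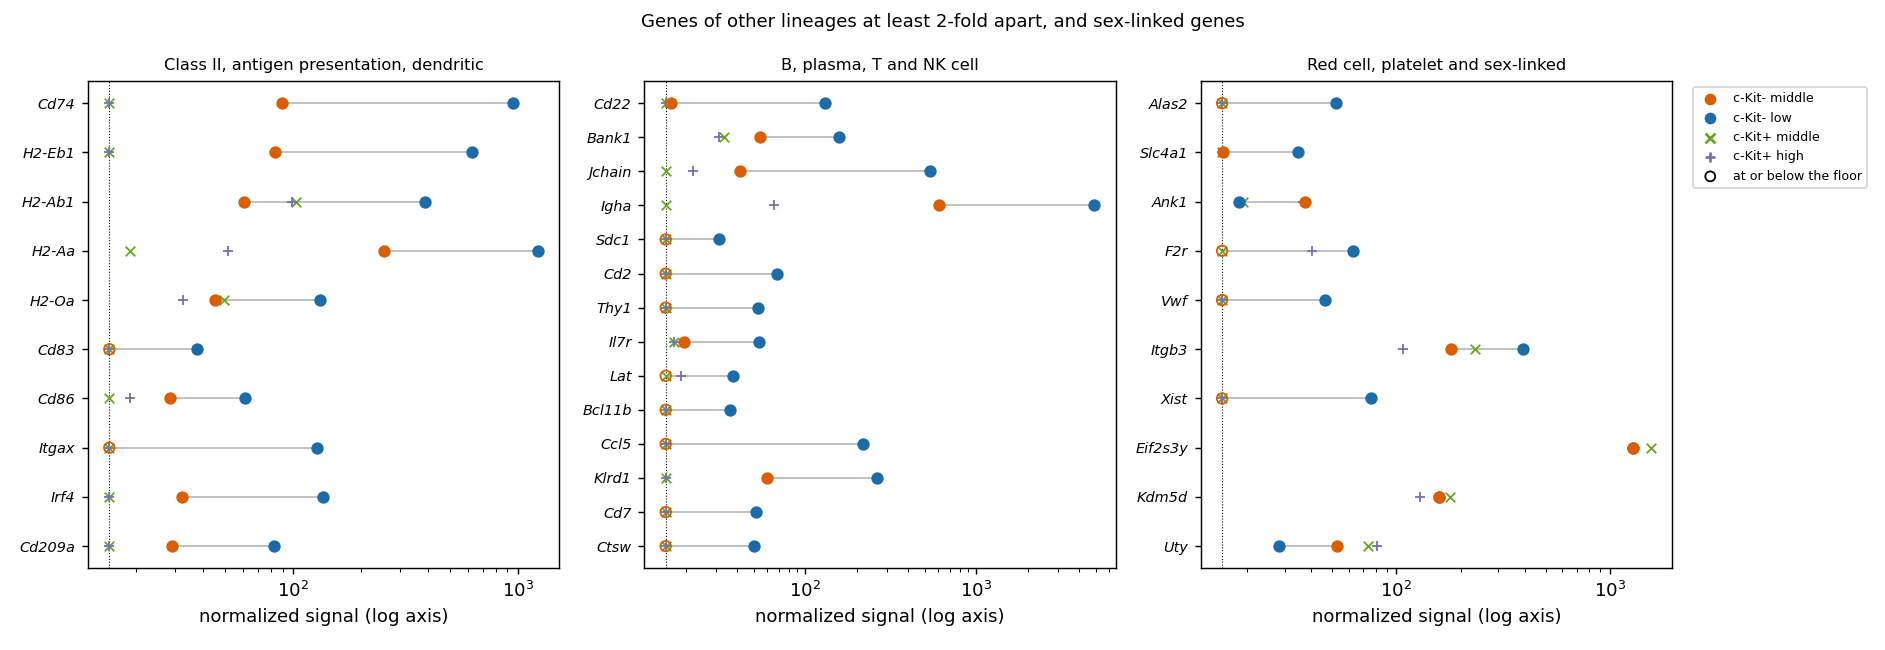
Normalized signal (log axis) of the genes of other lineages at least 2-fold apart between the c-Kit- middle and c-Kit- low arrays, and of 4 sex-linked genes, with both c-Kit+ arrays as crosses; hollow circles mark signals at or below the floor, drawn at the dotted line. The c-Kit- low array is the highest of the 4 for the class II, immunoglobulin and T cell genes shown, while Eif2s3y and Kdm5d coincide on both c-Kit- arrays.

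A further signal set the low array apart. Xist, the RNA that silences an X chromosome in female cells, had 0.756 on the c-Kit- middle array and 76.0 on the c-Kit- low array, at least 4.98-fold apart, and was below the floor on both c-Kit+ arrays. Its second probe set was also at the floor on the middle array and above it on the low array. The Y-linked genes Eif2s3y (1285 on the middle array, 1278 on the low array) and Kdm5d (159 and 158 in the same order) were equal, and Uty had 52.5 on the middle array and 28.1 on the low array. The c-Kit- low array was therefore the only one of 4 with Xist above the floor, beside Y-linked signals on all 4. The labels give no sex for donor or host.

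Stem and progenitor genes had a median near that of all genes, with a few members higher. Of 34 on the array 26 were compared. At least 2-fold higher were 4 (15.4 percent against 6.65 percent of all genes) and lower was 1 (3.85 against 5.46 percent). The median was 0.04, beside 0.03 for all genes, and became -0.24 with the authors' scaling. The higher ones were Rgcc (4.43-fold), with 182 on the middle array and 41.2 on the low array, Hmgb3 (2.76-fold), a chromatin protein of blood progenitors, Cbx5 (2.58-fold), the heterochromatin protein HP1 alpha, and Erg (2.47-fold), a factor of stem cell maintenance. By its second probe set Rgcc was 1.79-fold higher. Nrip1 was 2.13-fold lower. Cd34 (459 on the middle array, 389 on the low array), Flt3 (918 and 1280) and Myb (1481 and 1104) were within 2-fold. Of 14 Hoxa genes and cofactors 7 were compared, and Hoxa9 alone was past 2-fold, by its brightest probe set. Hoxa7 and Hoxa10 were below the floor on both arrays, and the cofactors Pbx3 (0.01) and Pknox1 (0.10) were at equal signal.

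The quality of both arrays differed somewhat. The ratio of 3′ to 5′ control signal for Actb was 3.28 on the c-Kit- middle array and 2.50 on the c-Kit- low array, and for Gapdh 3.91 and 3.37 in the same order. Trimmed mean signals as deposited were 99.0 on the middle array and 120 on the low array, and genes above the floor numbered 10413 and 10343. Whether these had a part in any ratio was not tested. The number of arrays limits the precision of every value above.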

How the data were processed

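RNA of 4 sorted fractions was hybridised to 1 Affymetrix array each. The submitters' processing notes name GCOS 1.2, MAS5 and R 3.0.2 without the role of each. A deposited table gives intensity, on a linear scale and as the authors scaled it, for 45101 probe sets. Another deposited table gives log2 values for 17419 of them. These differ from log2 of the intensities by a constant on each array, and served as an alternative.

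From the first table, 45037 probe sets that are not controls were quantile normalized over the 4 arrays, since trimmed means (2 percent left out at each end) differed by up to 21.5 percent. Signals were floored at the 50th percentile (15.3) and taken to log2. The platform annotation gives 1 gene for 34945 probe sets, several for 932 (left out) and none listed for 9160. Of the first, 34741 were matched by gene ID to the mouse reference. A gene was read by the probe set with the highest mean signal. A gene that exceeded the floor on neither array was not compared. Where it exceeded it on 1 array, its fold is a lower bound, computed against the floor. No test was possible with 1 array per fraction, and the number of arrays limits the precision.

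The lists (42, of which 9 hold genes of other lineages), the genes named and the rules were chosen with earlier results of these data known. Named were Kit, Gnl3, Hoxa9, Meis1 and sex-linked genes. Named too were the 12 highest and 12 lowest ratios outside lineage lists, and the 5 brightest genes in each direction at the floor on the other array. Per list, up to 5 members furthest in the direction of its median and any member 2-fold the other way were named, and every lineage gene past 2-fold. Predicted genes were passed over. Other members named within a list were chosen after their values were seen, as examples within 2-fold or of known function. Promoter windows are those of RefSeq on GRCm38.p6. Alternatives changed the scaling, the floor, the probe set and the table. The scripts were tested on simulated data and ran in Python 3.11.15 with numpy 2.4.6, pandas 2.3.3 and matplotlib 3.10.9.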

Additional observations from a re-analysis of the deposited data

How the results depend on the processing

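Replicates could not be left out, since there is 1 array per fraction. No paired analysis was possible because each group has 1 array and the results come from no test. With the signals as the authors scaled them, 395 genes were at least 2-fold higher and 1234 lower on the c-Kit- middle array, 24.2 percent of them higher, and the median of cholesterol genes was -0.029. The other lists whose median then turned from above to below 0 were aminoacyl-tRNA synthetase (-0.06), glycolysis (-0.23), stem and progenitor (-0.24), Hoxa (-0.21) and megakaryocyte genes (-0.30). Centring that scaling on its own median, an alternative chosen after seeing the data, gave 670 higher and 673 lower (49.9 percent higher). A floor at the 25th percentile gave 1940 higher and 1692 lower, with an NK cell median of -2.05. At the 75th percentile there were 372 higher and 283 lower. The medians were then 1.73 for G2 and M phase, -1.98 for class II, -0.74 for Toll-like and lectin receptor and -0.19 for interferon-stimulated genes. Second-brightest probe sets gave 345 higher and 293 lower among the 5251 genes that could be compared. Their medians were 1.61 for G2 and M phase, 1.04 for S phase, -0.56 for class II, -0.19 for interferon-stimulated and -0.0013 for B cell genes. The mean of probe sets gave 1.82 for G2 and M phase, a pseudocount of 16 gave -0.79 for class II, and the second table gave -0.79 for class II and -0.40 for Hoxa genes. The 75th percentile floor, the second-brightest probe sets and the second table compare fewer genes by construction; the causes were not tested further. Reversed were Capg (0.19 by the mean of probe sets and 1.42 by the second), Irf5 (0.42) and Nfatc2 (0.52), both by the second. Over all alternatives 15 of 348 list medians moved by more than the probe set SD, as did 298 of 1959 values of named genes, and 172 of 720 list counts moved by over 1.5 times. The depth of a low signal is set by the floor, and genes near 15.3 have the least certain ratios.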

Other observations

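Metabolic genes gave smaller differences than the cycle genes. Over all genes 6.65 percent were at least 2-fold higher on the c-Kit- middle array and 5.46 percent lower. Of 21 autophagy and amino acid response genes compared, 4 (19.0 percent) were at least 2-fold higher and 2 (9.52 percent) at least 2-fold lower. The higher ones all serve amino acid supply: Asns, asparagine synthetase, had 111 on the middle array and 33.4 on the low array (3.33-fold), Phgdh, which starts serine synthesis, 496 and 152 in the same order (3.26-fold), Slc7a5, a transporter of large amino acids, 85.7 and 32.5 (2.63-fold), and Psat1, the next serine enzyme, 1560 and 768 (2.03-fold). The lower ones serve autophagy: Map1lc3a, an LC3 protein, had 188 on the middle array and 567 on the low array (3.01-fold) and Sqstm1, the receptor p62, 302 and 851 (2.81-fold), though the second probe set of Sqstm1 gave -0.21 on the log2 scale. Atf4 itself was at near equal signal, with 994 on the middle array and 1137 on the low array.

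Respiratory chain and ATP synthase genes had a median log2 ratio of 0.34, with 50 of 53 above 0, 4 at least 2-fold higher (7.55 percent, near the 6.65 percent of all genes) and 1 lower. Ndufc1 (2.55-fold), Ndufab1 (2.48-fold) and Ndufb3 (2.18-fold), subunits of complex I, and Atp5g1 (2.10-fold) of the ATP synthase were the higher ones, and Uqcrc1 of complex III was 2.06-fold lower. Of 22 glycolysis and lactate transport genes 1 was higher (4.55 percent) and 2 were lower (9.09 percent), beside 6.65 and 5.46 percent of all genes. Slc16a1, the lactate carrier MCT1, had 109 on the middle array and 40.9 on the low array, and 736 and 753 on the c-Kit+ arrays. Pfkfb4, a regulator of glycolytic flux, had 106 on the middle array and 358 on the low array, and Slc2a3, the glucose carrier GLUT3, 238 and 497. In cholesterol synthesis Sqle, squalene epoxidase, was 3.04-fold and Idi1 2.77-fold higher, and Mvd 2.24-fold lower. Of 14 p53 target genes compared 1 was higher (7.14 percent) and 2 were lower (14.3 percent), beside the same shares of all genes. Fas, the death receptor, was 2.39-fold higher. Ddit4, a brake on mTOR signalling, had 567 on the middle array and 1589 on the low array, and Btg2 286 and 742 in the same order. Of 19 aminoacyl-tRNA synthetase genes none was 2-fold apart, the furthest being Eprs (1.91-fold higher).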
